A study of Mus musculus with 4 samples.

Results

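The genes described here are 10 targets of the hypoxia-inducible factors (HIFs) that lie outside the glycolytic enzymes: *Egln1*, *Egln3*, *Slc2a1*, *Slc16a3*, *Pdk1*, *P4ha1*, *P4ha2*, *Bnip3*, *Ankrd37* and *Vegfa*. They are 10 of the 9779 genes analysed, and were taken by name from the deposited tables. The names were chosen by known HIF regulation and by their FPKM in these same 4 libraries, so the levels and ratios below describe the genes and are not a test of them. RNA-Seq libraries were made from LF2 ESCs, a female mouse embryonic stem cell line of strain 129/J, after 24 hr of treatment. The 4 conditions were PBS+DMSO, AA+DMSO (50 μg/ml ascorbic acid), PBS+GSK-J4 (10 μM GSK-J4) and AA+GSK-J4 (both agents), with 1 library each. PBS served as the vehicle for AA and DMSO as that for GSK-J4, a small molecule that enters cells and inhibits histone demethylases of the JmjC class. The line was maintained on mouse embryonic fibroblast feeders, which were removed by passage before treatment, and no genetic change separates the conditions. Because there is 1 library per condition, no difference has a replicate check and no p-value is given.

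HIF is a pair of proteins, an oxygen-regulated alpha subunit and a constant beta subunit (ARNT). Prolyl hydroxylases encoded by the *Egln* genes hydroxylate the alpha subunit, and VHL then marks it for degradation. These enzymes use oxygen, iron and 2-oxoglutarate, and ascorbate keeps their iron in the reduced state. The collagen prolyl hydroxylases, whose catalytic subunits are encoded by *P4ha1* and *P4ha2*, have the same needs. Stabilised HIF raises transcription of genes for glucose uptake, lactate export, mitophagy and blood vessel growth, and of some *Egln* genes themselves. The question put to the data was how AA changed the RNA of these targets, alone and together with GSK-J4.

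HIF binds DNA at the core letters ACGTG or GCGTG. The RefSeq promoter windows of the members (GRCm38.p6, from 250 bases before the start to 50 after it) were searched for ACGTG and GCGTG on both strands. At least 1 match was present in 9 of the 10 members, and ACGTG in 8. Among all 32851 windows, 43.8% hold either motif and 19.6% hold ACGTG. Among 6815 genes kept for the AA comparison in DMSO and matched to a window by symbol, taking the first listed window of each, the shares are 67.2% and 27.5%. For members, the window with its start nearest the beginning of the gene was used instead. This left a choice only in *Vegfa* and *Pdk1*, with 2 windows each. *Vegfa* has no match in the window used for it (chr17:46032328-46032627), which says only that these letters are not within it. The windows held 5 matches in *Bnip3*, 4 each in *Ankrd37* and *P4ha2*, 3 in *P4ha1* and 1 in *Egln3*. *Slc16a3*, *Slc2a1*, *Egln1* and *Pdk1* held 2 each. The stretches below, 60 bases each and upstream of the start, belong to the 5 members with the lowest AA ratios. Each was picked to hold the most matches, so matches elsewhere are not shown, such as ACGTG 16 bases before the start of *P4ha1*. The stretches are written 5′ to 3′ on the strand of the gene, with each match in capitals, and CACGTG counts on both strands. CACGC and CACGT are GCGTG and ACGTG read on the other strand.
Slc16a3, chr11:120949007-120949066 (+): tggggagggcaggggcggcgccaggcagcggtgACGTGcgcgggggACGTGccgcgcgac
Bnip3, chr7:138909583-138909642 (-): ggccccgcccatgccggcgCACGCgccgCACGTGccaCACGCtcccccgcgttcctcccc
P4ha1, chr10:59323123-59323182 (+): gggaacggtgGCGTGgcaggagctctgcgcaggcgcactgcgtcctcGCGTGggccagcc
Egln3, chr12:54204065-54204124 (-): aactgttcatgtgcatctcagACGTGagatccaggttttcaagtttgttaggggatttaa
Slc2a1, chr4:119108668-119108727 (+): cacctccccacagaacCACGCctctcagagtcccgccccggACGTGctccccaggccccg
In *Slc16a3* both ACGTG matches lie within 27 bases of the start. In *Bnip3* the printed stretch holds 4 matches, 2 of which are the same CACGTG read on either strand. A match is a description of the reference and not a measured HIF site.

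Values are FPKM, fragments scaled to the exon length of a transcript and to the size of the library, and the coding sequence groups of each gene were added up. Ratios are log2((FPKM + 1)/(FPKM + 1)), in which the change of a weakly expressed gene looks smaller than it is, and a gene was counted as lower or higher when this ratio passed 1.5-fold (0.585 on the log2 scale). The PBS and AA libraries of each pair stand in separate deposited tables, so each AA ratio sets values across these tables. Summed over all genes, FPKM was 360621 in PBS+DMSO, 342327 in AA+DMSO, 275575 in PBS+GSK-J4 and 271205 in AA+GSK-J4. The tables hold no read counts, and steps in the low values gave AA+DMSO 0.795 of the depth of PBS+DMSO and AA+GSK-J4 0.818 of PBS+GSK-J4. The same steps are nearly as well met by 1.59 and 1.64, so reads per gene could not be settled and no counting interval is given. The 8 embryonic stem cell markers with a value lay between 37.4 and 867 FPKM, with sums of 2290 and 2064 without GSK-J4 (PBS, AA) and 1366 and 1226 with it. With AA, *Tdgf1* alone of these passed 1.5-fold, in GSK-J4 (-0.70, and -0.47 in DMSO). With GSK-J4, on the deposited scale, *Pou5f1*, *Nanog*, *Tdgf1* and *Utf1* were lower past 1.5-fold in PBS, and the same 4 and *Dppa5a* in AA. Of 13 fibroblast markers, 6 had a value, between 1.78 and 21.4 FPKM, and their sums were 32.5 and 27.7 without GSK-J4 (PBS, AA) and 43.6 and 39.8 with it. None of these 6 passed 1.5-fold with AA, *Acta2* was higher with GSK-J4 in PBS, and *S100a4* was higher with it in AA. The RNA is bulk, so fewer cells of a type and less RNA per cell cannot be told apart.

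FPKM of all 10 members was lower in the AA library of both pairs, by more than 3-fold in *Slc16a3* and by so little in *Vegfa* that no direction is read from it. Summed over the members, FPKM went from 337 in PBS+DMSO to 202 in AA+DMSO, and from 327 in PBS+GSK-J4 to 193 in AA+GSK-J4. In DMSO, 4 members were at least 1.5-fold lower (*Slc16a3*, *Bnip3*, *P4ha1* and *Egln3*), where 2.22% of the 8843 genes kept were. In GSK-J4, 5 members were at least 1.5-fold lower, those 4 and *Slc2a1*, where 2.54% of 9180 genes were. No member was higher past 1.5-fold in either comparison, against 2.09% and 1.71% of all genes. Scaled to the same total, lower and higher calls over all genes in DMSO were 156 and 224 in place of 196 and 185, and the 4 members were still lower. Being lower by any amount is common, at 62.4% of genes in DMSO and 55.4% in GSK-J4, and 37.1% of the 8660 genes kept in both were lower in both. Past 1.5-fold in both, the share of all genes was 0.508%. The median ratio of the members was -0.52 in DMSO and -0.53 in GSK-J4, beside -0.05 and -0.02 for all genes, whose SD was 0.27 and 0.26. The comparisons in DMSO and in GSK-J4 share no library, but both PBS libraries were deposited together and both AA libraries together. A difference in processing between these deposits would enter both comparisons and cannot be told apart from AA. Since the members were named with such values known, these shares describe them and do not test them.

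**Figure D1:**
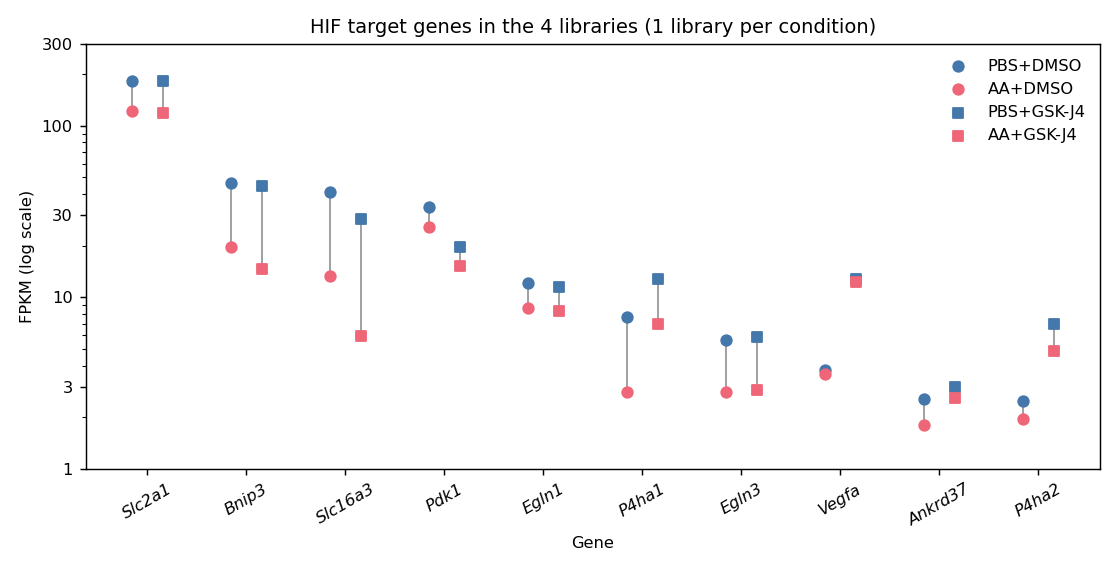
FPKM on a log axis of the 10 HIF target genes in the 4 libraries, ordered by level, with circles for DMSO, squares for GSK-J4, blue for PBS and red for AA, and 1 library per point. In each of the joined pairs the AA point is the lower one, and the gap is widest for *Slc16a3* in GSK-J4 (28.5 against 5.93).

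*Egln1* and *Egln3* encode the HIF prolyl hydroxylases PHD2 and PHD3, which act on HIF and are HIF targets as well. *Egln3* (chr12:54178985-54203862) had 5.66 FPKM in PBS+DMSO and 2.79 in AA+DMSO, and 5.88 in PBS+GSK-J4 and 2.87 in AA+GSK-J4. AA therefore left 49.3% and 48.9% of its level, log2 ratios of -0.81 and -0.83, and its GSK-J4 ratios were 0.05 and 0.03. On the deposited scale its PBS libraries lay close together, well above its AA libraries. *Egln1* (chr8:124908587-124948704) was lower by less, from 12.2 to 8.64 FPKM in DMSO and from 11.4 to 8.34 in GSK-J4. Its ratios of -0.45 and -0.41 did not pass 1.5-fold. *Egln2*, the third HIF prolyl hydroxylase gene, had 24.1 and 27.2 FPKM in DMSO and 18.7 and 21.8 in GSK-J4 (0.17 and 0.21). These ratios are smaller than the SD of all genes (0.27 and 0.26), so no direction is read from them.

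The transporters are the most strongly expressed member and the member with the lowest AA ratio. *Slc2a1* (chr4:119108760-119139893) encodes the glucose transporter GLUT1. Its level was 182 FPKM in PBS+DMSO, 121 in AA+DMSO, 181 in PBS+GSK-J4 and 119 in AA+GSK-J4. On the deposited scale the level was nearly the same in both PBS libraries and in both AA libraries, and AA left 66.7% and 65.8% of it. The ratio of -0.58 in DMSO lies just short of the 1.5-fold threshold and the -0.60 in GSK-J4 just past it, so the count of 5 against 4 rests on a small step. *Slc2a3*, which encodes the glucose transporter GLUT3 and is expressed at 252 to 320 FPKM, had ratios of -0.22 and -0.32. *Slc2a3* is itself in the list of further HIF targets below.

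*Slc16a3* (chr11:120949026-120959551) encodes MCT4, a lactate exporter. It had 41.0 FPKM in PBS+DMSO, 13.3 in AA+DMSO, 28.5 in PBS+GSK-J4 and 5.93 in AA+GSK-J4. AA left 32.3% of its level in DMSO and 20.8% in GSK-J4, log2 ratios of -1.56 and -2.09. These ratios rank 9 of 8843 and 3 of 9180 from the lowest, and their difference of -0.53 was the largest among the members. The paralog *Slc16a1*, which encodes the monocarboxylate transporter MCT1, had 59.3 and 53.9 FPKM in DMSO and 34.2 and 32.2 in GSK-J4. Its AA ratios were -0.14 and -0.09, so the pair of lactate carriers differed by more than 1 log2 unit in their AA ratio in both pairs of libraries.

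*Pdk1* (chr2:71873317-71903841) encodes a pyruvate dehydrogenase kinase, which restrains entry of pyruvate into the mitochondrial cycle. Its level was 33.5 FPKM in PBS+DMSO, 25.7 in AA+DMSO, 19.8 in PBS+GSK-J4 and 15.2 in AA+GSK-J4. AA left 76.8% and 76.9%, with ratios of -0.37 and -0.36 that did not pass 1.5-fold. *Pdk2* and *Pdk3* had AA ratios between -0.12 and 0.11, and *Pdk4*, below 1 FPKM in both DMSO libraries, had -0.13 in GSK-J4.

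*P4ha1* and *P4ha2* encode the catalytic subunits of collagen prolyl 4-hydroxylase. *P4ha1* (chr10:59323328-59372312) had 7.66 FPKM in PBS+DMSO and 2.81 in AA+DMSO, and 12.8 in PBS+GSK-J4 and 7.03 in AA+GSK-J4. AA left 36.7% and 54.7% of its level, with ratios of -1.18 and -0.79. The level in AA+GSK-J4 was close to that in PBS+DMSO. *P4ha2* (chr11:54100945-54131648) had 2.498 and 1.96 FPKM in DMSO and 7.04 and 4.85 in GSK-J4. Its AA ratios of -0.24 and -0.46 did not pass 1.5-fold, and its level is the sum of 2 coding sequence groups, of which the weaker stayed at or below 0.182 FPKM. *P4hb*, the partner subunit of the same enzyme, had AA ratios of -0.20 and -0.12. Of the 6 fibroblast markers, *Twist1* (-0.52 and -0.09), *Thy1* (-0.44 and 0.15) and *S100a4* (-0.33 and 0.07) had AA ratios in DMSO below that of *P4ha2*, and none was as low as *P4ha1*. The part of feeder cells in the collagen hydroxylase values was not tested.

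*Bnip3* (chr7:138890693-138909521) encodes a mitophagy receptor of the mitochondrial outer membrane. It had 46.4 FPKM in PBS+DMSO, 19.7 in AA+DMSO, 44.6 in PBS+GSK-J4 and 14.6 in AA+GSK-J4. Both AA libraries were well below both PBS libraries, at 42.5% and 32.8% of the paired level, with ratios of -1.19 and -1.54. The paralog *Bnip3l*, also a mitophagy receptor, had ratios of -0.24 and -0.08 at 45.7 to 66.9 FPKM. *Bnip3l* is itself in the list of further HIF targets below, so it is not a comparison outside HIF. *Ankrd37* (chr8:45996907-45999916) encodes a small ankyrin repeat protein. Its level was low throughout, at 2.57 and 1.81 FPKM in DMSO and 3.01 and 2.59 in GSK-J4, and the AA ratios were -0.34 and -0.16.

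*Vegfa* (chr17:46017000-46032386) encodes the main vascular endothelial growth factor. It had 3.79 FPKM in PBS+DMSO and 3.59 in AA+DMSO, and 12.8 in PBS+GSK-J4 and 12.3 in AA+GSK-J4. The AA libraries differed from their PBS partners by about 5%, with ratios of -0.06 in both pairs, near the median of all genes. When the DMSO libraries were scaled to the same total the ratio was -0.0003. Of the paralogs of the members with a value, 1 of 8 was lower with AA in DMSO, *Vegfb*, and 0 of 9 in GSK-J4. Of all genes, 2.22% and 2.54% were lower, so these counts are not read as a result. The paralogs include the HIF targets *Slc2a3* and *Bnip3l*. *Vegfb* had 15.1 and 9.68 FPKM in DMSO (-0.59) and 9.18 and 10.8 in GSK-J4 (0.21), and *Vegfc* had ratios of 0.24 and -0.04.

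**Figure D2:**
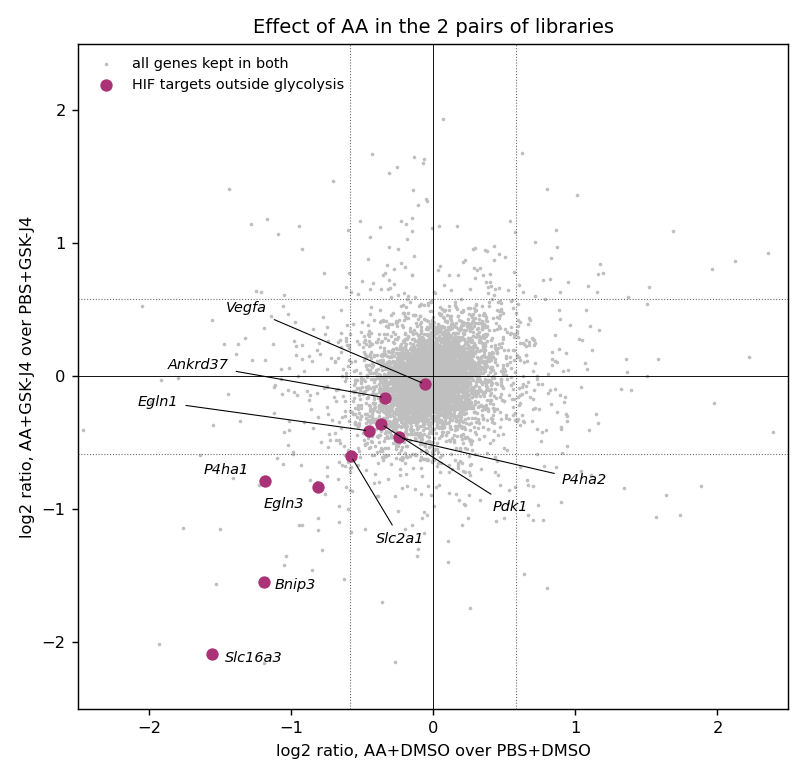
Log2 ratio of (FPKM + 1) for AA over PBS in DMSO (horizontal) and in GSK-J4 (vertical), with grey points for the 8660 genes kept in both, purple points for the 10 HIF targets and dotted lines at 1.5-fold. All 10 lie below 0 on both axes, from *Vegfa* near the centre to *Slc16a3* at -1.56 and -2.09.

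The members differ in level, and low values vary more. Of all genes with a mean of 1 to 5 FPKM in the DMSO pair, 4.0% were at least 1.5-fold lower with AA, against 1.18% at 5 to 20 FPKM and 0.389% at 20 FPKM or more. The members in these bands that were lower were 1 of 4 (*Egln3*), 1 of 2 (*P4ha1*) and 2 of 4 (*Slc16a3* and *Bnip3*). In the GSK-J4 pair the shares of all genes were 4.88%, 1.05% and 0.609%, and those of the members 1 of 2 (*Egln3*), 2 of 6 (*Slc16a3* and *P4ha1*) and 2 of 2 (*Slc2a1* and *Bnip3*). The bands were chosen after the data were seen.

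Of 14 other genes of the HIF machinery, a list without the members *Egln1* and *Egln3*, 0 were lower and 0 higher past 1.5-fold with AA in either pair. Of all genes, 2.22% in DMSO and 2.54% in GSK-J4 were lower, and 2.09% and 1.71% higher. In a list this short, a count of 0 is near those shares and is not read as a result. The same shares belong beside the AA counts of the lists below. Their median ratio was -0.08 in DMSO and 0.07 in GSK-J4. *Hif1a*, which encodes the oxygen-regulated subunit, had 24.7 and 20.1 FPKM in DMSO (-0.29) and 14.04 and 19.98 in GSK-J4 (0.48). *Epas1*, encoding the second alpha subunit, had ratios of -0.24 and -0.13, and *Arnt* had -0.19 and 0.24. *Vhl* (-0.02 and 0.01) and *Hif1an*, the asparaginyl hydroxylase of HIF (-0.07 and 0.02), were near 0. *Tceb1*, which encodes elongin C of the VHL complex, had the lowest ratio of the list in DMSO, -0.55, and 0.12 in GSK-J4. These are RNA levels, and the amount of HIF protein was not measured.

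Among 28 further HIF targets with a value, 22 were kept in DMSO and 27 in GSK-J4. In DMSO none passed 1.5-fold in either direction, 21 of 22 were below 0, and the median was -0.24. In GSK-J4, *Plod2* was lower and *Car12* higher, 22 of 27 were below 0, and the median was -0.20. *Plod2*, a collagen lysyl hydroxylase gene, had 12.3 FPKM in AA+DMSO, a ratio of -0.52 to PBS+DMSO, and 57.9 and 37.7 in GSK-J4 (-0.61). *Higd1a*, a mitochondrial protein gene induced by hypoxia, had ratios of -0.45 and -0.54. *Ddit4*, an inhibitor of mTORC1 signalling, had -0.49 and -0.48, and the histone demethylase gene *Kdm3a* had -0.43 and -0.41.

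Of the 13 glycolytic enzymes with a value, 5 were at least 1.5-fold lower with AA in DMSO (*Pfkl*, *Aldoa*, *Tpi1*, *Pgk1* and *Ldha*) and 6 in GSK-J4 (these and *Eno1*), and none was higher. Their medians were -0.40 and -0.57. *Ldha*, the lactate dehydrogenase gene upstream of lactate export by MCT4, had 933 and 450 FPKM in DMSO (-1.05) and 666 and 248 in GSK-J4 (-1.42). *Pgk1* had ratios of -0.82 and -1.15, *Tpi1* -0.94 and -1.12, and *Pfkl* -0.93 and -1.12. No glycolytic enzyme had as low a ratio as *Slc16a3* in either pair.

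Genes of collagen modification other than the members had medians of -0.12 in both pairs. With AA, 0 of 8 passed 1.5-fold in DMSO and 1 of 7, *Plod2*, in GSK-J4. *Serpinh1*, a collagen chaperone gene, had ratios of -0.13 and -0.25. Of 6 genes of ascorbate transport and recycling, none passed 1.5-fold with AA in either pair, with medians of -0.04 and 0.03. Both lists are short beside the shares of all genes given above, so their counts are not read as results. *Slc23a2*, which encodes an ascorbate transporter, was at 11.5 FPKM in both DMSO libraries, and at 11.8 and 13.6 in GSK-J4.

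**Figure D3:**
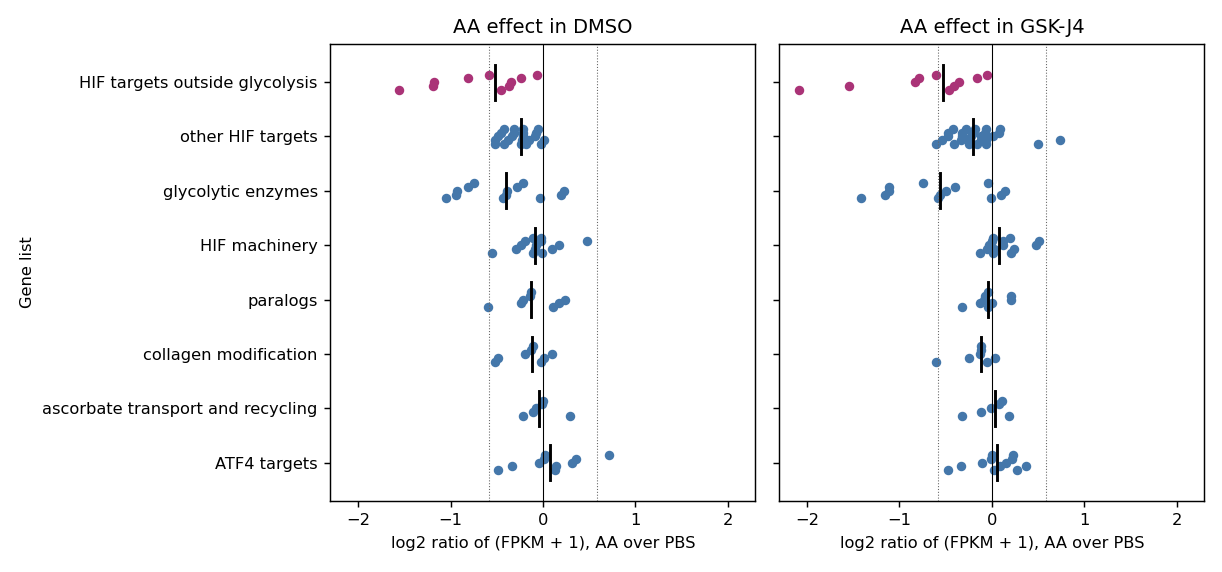
Log2 ratio of (FPKM + 1) for AA over PBS in DMSO (left) and in GSK-J4 (right), with 1 point per gene, a black bar at the median of each list and dotted lines at 1.5-fold. The HIF targets outside glycolysis (purple, medians -0.52 and -0.53) and the glycolytic enzymes (-0.40 and -0.57) hold nearly all points past the lower line.

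With GSK-J4 the members lay on both sides of 0, and these ratios come from libraries also used above for AA. *Vegfa*, *P4ha1* and *P4ha2* were at least 1.5-fold higher with GSK-J4 in PBS and in AA. That is 3 of 10, where 11.6% of genes in PBS and 10.1% in AA were higher, and 7.39% of the genes kept in both comparisons were higher in both. The ratios were 1.53 and 1.53 for *Vegfa*, 1.20 and 0.98 for *P4ha2*, and 0.68 and 1.07 for *P4ha1*. *Pdk1* was lower in both (-0.73 and -0.72) and *Slc16a3* was past 1.5-fold in AA (-0.51 and -1.04), where 19.3% of genes in PBS and 17.8% in AA were lower. On the deposited scale, *Slc2a1*, *Egln1* and *Egln3* lay between -0.09 and 0.05 in both, *Bnip3* had -0.06 and -0.41, and *Ankrd37* 0.17 and 0.35.

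The median of all genes was -0.17 and -0.16 with GSK-J4, and it moved to 0.16 and 0.14 when libraries were scaled to the same total. With that scaling, lower against higher calls over all genes went from 1775 and 1063 to 432 and 1978 in PBS, and from 1625 and 923 to 504 and 1765 in AA. *Vegfa*, *P4ha1* and *P4ha2* were higher past 1.5-fold under each of the 3 scalings tried, but with a pseudocount of 5 *P4ha1* was not in PBS (0.50) and *P4ha2* was not in AA (0.50). *Pdk1* and *Slc16a3* were below 0 under each, while *Pdk1* was no longer past 1.5-fold (-0.56 and -0.57 after centring on the median). On the same-total scale *Slc2a1* went from near 0 to 0.38 and 0.31, *Egln1* to 0.27 and 0.26, and *Egln3* to 0.38 and 0.28. *Bnip3* went to 0.32 and -0.09 on that scale, so no direction with GSK-J4 is given for these genes. Members below 0 were 5 in both comparisons on the deposited scale, and 2 in PBS and 3 in AA on the same-total scale.

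Targets of ATF4, the transcription factor of the integrated stress response, moved with GSK-J4 beside these genes. In PBS 10 of 12 and in AA 11 of 12 were at least 1.5-fold higher, with medians of 2.06 and 1.95. Their summed level was 315 and 313 FPKM in DMSO (PBS, AA) and 856 and 823 in GSK-J4. *Ddit4*, which is both an ATF4 and a HIF target, went from 29.4 to 280 FPKM in PBS and from 20.7 to 201 in AA. Of the other genes of collagen modification, *Plod2* (1.63 and 1.55) and *Serpinh1*, at 15.8 and 14.4 FPKM in DMSO and 44.4 and 37.2 in GSK-J4, were higher past 1.5-fold. The list as a whole was not, with 5 of 8 genes below 0 in PBS and 4 of 7 in AA, and medians of -0.16 and -0.08. *Leprel2* was lower past 1.5-fold in PBS. The part of ATF4 in the *Vegfa*, *P4ha1* and *P4ha2* values was not tested. With AA, 1 ATF4 target (*Trib3*, 0.71) passed 1.5-fold in DMSO and none in GSK-J4, and the medians were 0.08 and 0.06.

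**Figure D4:**
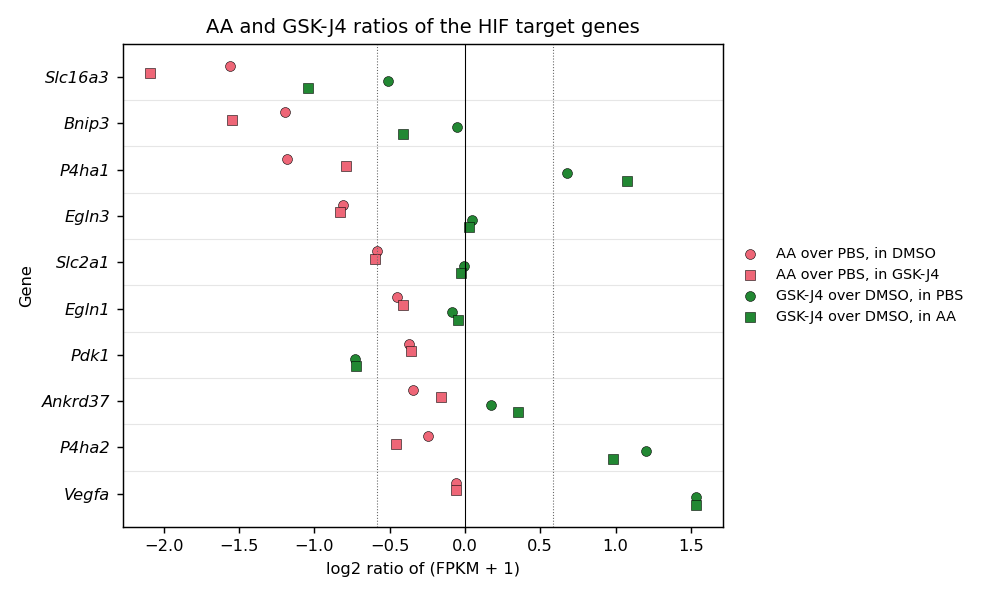
Log2 ratio of (FPKM + 1) of each HIF target for AA over PBS (red) and for GSK-J4 over DMSO (green), with circles for the pair without the other agent, squares for the pair with it and dotted lines at 1.5-fold. Red points are all below 0, while green points lie on both sides, from -1.04 for *Slc16a3* to 1.53 for *Vegfa*.

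The AA effect in GSK-J4 less that in DMSO was within 1.5-fold for all 10 members. It was -0.53 for *Slc16a3*, -0.35 for *Bnip3*, 0.40 for *P4ha1* and -0.22 for *P4ha2*. For *Slc2a1*, *Egln1*, *Egln3*, *Pdk1* and *Vegfa* it lay between -0.02 and 0.04, and for *Ankrd37* it was 0.18. Whether the AA effects differ cannot be tested with 1 library per condition.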

How the data were processed

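RNA was sequenced from 4 treatments of female LF2 ESCs, with 1 library each. The authors sequenced single-end reads of total RNA, removed duplicates, and used TopHat2 (mm10, per the submitters' processing notes), Cufflinks2 and CummeRbund through Maser. They deposited FPKM in 2 tables, GSK-J4 against DMSO without and with AA, under column heads that read log10 although the values are linear. The scaling between libraries is not given in the sources used here. The authors' fold changes, p-values, q-values and calls in these tables were not used. Removal of duplicates can lower highly expressed genes.

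FPKM was summed over coding sequence groups per gene. The 157 genes with a failed estimate were left out. Log2 ratios used a pseudocount of 1, and a gene was kept where either library of the pair reached 1 FPKM. Counts use a 1.5-fold threshold. The calculation was tested on simulated data that held counting error but no spread between libraries of a condition. That run checked the code and not the calls made here. Coordinates are those of the tables, and all 10 loci overlap the protein-coding gene of the same name in GENCODE M21 (GRCm38). Promoters come from RefSeq (GRCm38.p6), and all 10 members matched by symbol.

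The members and lists were chosen with earlier results of these data known. All members were named, and genes of the HIF machinery and paralogs of the members at 1 FPKM or more could be. From other lists at most 4 could be named, those with the largest absolute mean AA ratio among genes at 5 FPKM or more. Some genes past 1.5-fold and marker genes are named outside this rule, after their values were seen. Samples were grouped by title. Depth is unknown and limits the precision of low values. Alternatives were pseudocounts of 0.1 and 5, filters of 5 in either library, 1 in both or none, 3 scalings, thresholds of 0.32 and 1 on the log2 scale, and 1 coding sequence group per gene. Python 3.11.15, numpy 2.4.6, pandas 2.3.3 and matplotlib 3.10.9 were used.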

Additional observations from a re-analysis of the deposited data

How the results depend on the processing

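No paired analysis was possible because each condition has 1 library. All members kept were below 0 with AA in both pairs under every pseudocount, filter and scaling tried, and no member reversed past 1.5-fold. The 4 members lower with AA in DMSO became 8 at a threshold of 0.32 on the log2 scale, 3 at 2-fold and 3 with a pseudocount of 5 (*Egln3* at -0.45). The 5 in GSK-J4 became 8 at 0.32, 2 at 2-fold and 2 with a pseudocount of 5 (*Slc16a3* and *Bnip3*), which shrinks low values by construction, and 4 under each scaling, where *Slc2a1* dropped just under the threshold. Members lower with GSK-J4 in PBS, 1 as reported, were 0 under each scaling, 0 at 2-fold and 2 at 0.32. In AA, 2 became 1 under each scaling and 1 at 2-fold. The 3 members higher with GSK-J4 became 2 with a pseudocount of 5 and 2 at 2-fold in both pairs, and in AA 2 at 5 FPKM in either library, which leaves out *P4ha2*, and 4 at 0.32. The difference between the AA effects passed the threshold for 0 members, for 1 with a pseudocount of 0.1 and for 3 at 0.32. Over all genes, lower and higher calls with AA in DMSO were 196 and 185, and became 156 and 224 scaled to the same total, 332 and 308 with a pseudocount of 0.1, 32 and 27 with 5, 66 and 61 at 5 FPKM in either library, 107 and 111 at 1 FPKM in both, 595 and 518 at 0.32 and 65 and 50 at 2-fold. In GSK-J4, 233 and 157 became 426 and 262, 27 and 18, 77 and 38, 149 and 80, 766 and 486, and 55 and 47 under the settings from the pseudocount of 0.1 on, in the same order. With 1 library per condition and depth unknown, the spread between libraries of a condition is not known for any member, and it weighs most on those with few FPKM, such as *Ankrd37* and *P4ha2*.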

Other observations

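Among 6548 genes with at least 5 FPKM in 1 or more libraries, 24 were at least 1.5-fold lower with AA in both pairs and 12 were higher. Of the 24, 4 are members, 5 are glycolytic enzymes and 15 are in none of the lists. The genes named here were chosen after their values were seen. *Mta1*, which encodes a subunit of the NuRD chromatin complex, had 6.21 FPKM in PBS+DMSO, 0.894 in AA+DMSO, 5.58 in PBS+GSK-J4 and 0.635 in AA+GSK-J4. Its ratios of -1.93 and -2.01 put it beside *Slc16a3*. *Ndufa4l2*, a mitochondrial gene known as a HIF target that the lists did not include, had 7.90 and 2.89 FPKM in DMSO and 21.01 and 3.93 in GSK-J4, ratios of -1.19 and -2.16. *Pfkfb3*, which encodes an enzyme that sets the level of a glycolytic activator, had -0.67 and -0.77, and the phosphoglucomutase gene *Pgm2* had -0.59 and -0.85. Besides *Mta1* and *Ndufa4l2*, other genes of the 15 had a lower mean of the AA ratios than *Pfkfb3* and *Pgm2*. These were *Ext2* (-1.04 and -1.35), *Fgf15* (-0.66 and -1.09), *Sec24d*, *Gzf1*, *Coch*, *Pop1*, *Prelid2* and *Upp1*. The genes tied above to HIF or glycolysis are therefore only a part of the 15. Among the 12 that were higher, *Etv4*, an ETS family transcription factor gene, went from 1.12 to 5.83 FPKM in DMSO and from 2.32 to 6.07 in GSK-J4, ratios of 1.69 and 1.09. *Rpl39l*, a ribosomal protein gene with a close paralog that can share reads with it, had 0.94 and 0.71. No test is possible for any of these.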
